A study of Macaca mulatta with 10 samples.

Results

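The comparison described here set IVDS3 cells, the third of the differentiation stages in this series, against IVDS2 whole colonies, the stage before it, in derivatives of the rhesus macaque (Macaca mulatta) embryonic stem (ES) cell line ORMES6. Its samples were set by their titles, and earlier results of these data were known when the comparison was chosen. It takes 4 of the 10 arrays of the series, 2 of IVDS3 and 2 of IVDS2. RNA was hybridised to a rhesus macaque oligonucleotide array, and 13191 named genes could be compared. The series also holds 6 other arrays. They are 2 of undifferentiated ES cells, 2 of the central foci of stage 2 colonies (IVDS2-C) and 2 of their peripheral area (IVDS2-P). These 6 entered the estimate of the spread and the median over the 10 arrays to which each value is relative. Their values are also given for reference, and IVDS2-C and IVDS2-P entered a side-by-side comparison. ES cells were grown on mouse embryonic fibroblast feeders with basic fibroblast growth factor, and the differentiating cells were co-cultured with hESdF, fibroblast-like cells that had themselves been derived from human embryonic stem cells. The labels describe this co-culture as a way to obtain hepatic foci. All 10 samples carry the same cell type label, ESC, and all come from 1 cell line. The labels give no day for either stage and do not say whether the replicates were separate cultures, so every p-value measures the spread between these arrays, which may be technical.

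Embryonic stem cells that leave the pluripotent state first commit to a germ layer, and liver cells come from definitive endoderm through a hepatoblast that makes alpha-fetoprotein. Surface ectoderm instead gives stratified epithelium, in which basal cells divide, leave the cell cycle as they move upward, replace their keratins, reinforce their desmosomes and lay down a cornified envelope. Interferons are cytokines that cells release on sensing foreign nucleic acid, and they switch on a large set of antiviral genes through STAT transcription factors.

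Each value below is a log2 expression value relative to the median of the same probe set over the 10 arrays, averaged over the probe sets of a gene. Such values show differences between arrays and no absolute level, so levels of different genes cannot be set against each other. A difference is the IVDS3 mean minus the IVDS2 mean with its standard error from a linear model across all genes (limma, 5 residual degrees of freedom, n = 2 arrays in each group). That error pools the spread of replicates in every group of the series, so replicates that differ in another group widen it. This was so for IFIT1, ZNF750 and POU5F1, in which the 2 IVDS2-C arrays were far apart. A gene was called when its p-value, adjusted by the Benjamini-Hochberg method over all 13191 genes, was under 0.05. The number of arrays limits the precision, and the median standard error of a difference was 0.14. In bulk RNA, fewer cells of a type and less RNA per cell cannot be told apart.

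Measures of array quality are given here first. Replicate arrays differed with a standard deviation of 0.21 over genes, each the mean of its probe sets, in IVDS3 and 0.26 in IVDS2. The difference between the 5-prime and 3-prime actin control probe sets, a measure of RNA integrity, was 0.03 and 0.23 on the IVDS2 arrays and -0.16 and 0.04 on the IVDS3 arrays, and the GAPDH pair gave -0.02 and 0.07 against -0.09 and -0.09. The actin difference was higher on replicate 2 than on replicate 1 in all 5 groups of the series. Control RNAs that are added to a sample before labelling, the poly-A spikes, had medians of 0.44 and -0.67 on the IVDS2 arrays and 0.90 and -0.42 on the IVDS3 arrays, and they were above zero on each of the 5 replicate 1 arrays and below zero on each of the 5 replicate 2 arrays. Replicate number thus moved with measures of sample preparation, and each of the 2 groups compared holds 1 array of each number. With the number as a block in the fit, 5359 genes were called in place of 5242. The median difference over all genes was -0.10, so a gene list near that value did not differ from the bulk of the array. Centring each array on its own median moved it to -0.05.

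Of the 13191 genes, 5242 (39.7%) were called, 2317 (17.6%) higher and 2925 (22.2%) lower in IVDS3. Every count of rises and falls in a gene list below is to be read against these 2 shares, 17.6% and 22.2%. The falls were more numerous, and the large changes were mostly rises. With each array centred on its own median, the counts were nearly even, 2512 higher and 2529 lower. At least 2-fold, 1084 genes (8.22%) rose and 812 (6.16%) fell. At least 8-fold, 195 rose and 32 fell, and at least 32-fold, 42 rose and 0 fell. Leaving out IVDS3 replicate 1 left 3433 called genes, 1762 of them lower. The arrays of the 2 groups were without overlap in each of the 5242 called genes and in 74.7% of all genes. A call requires a difference that is large against the spread, so the former follows largely from the call.

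**Figure D1:**
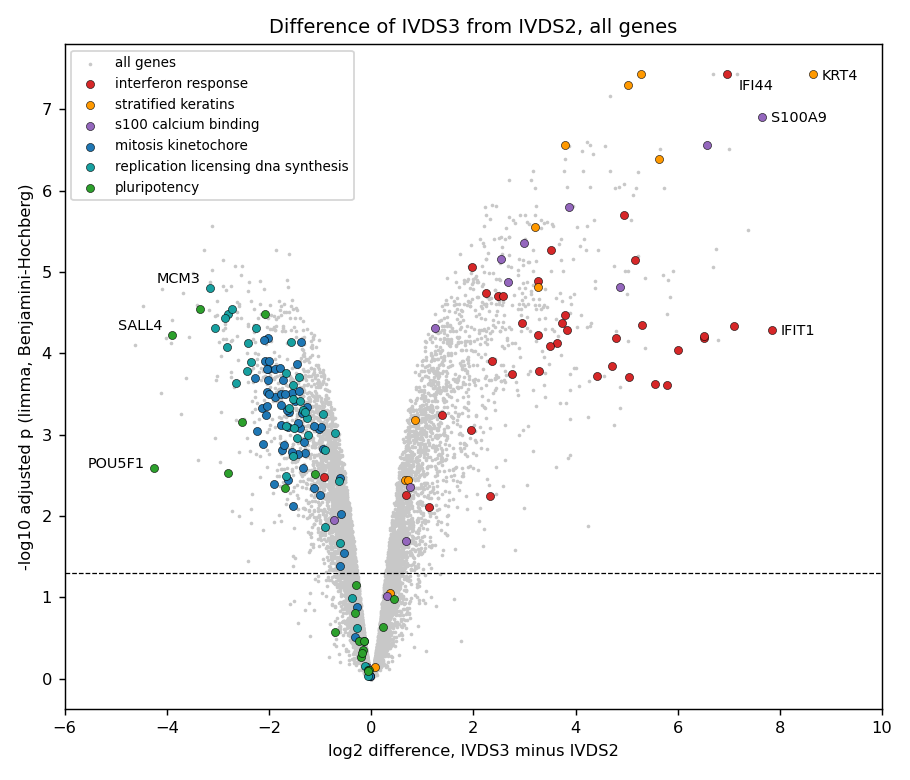
Difference of each gene between IVDS3 and IVDS2 (x axis, log2, IVDS3 minus IVDS2) against the negative log10 of its adjusted p (y axis), with all genes in grey, the threshold as a dashed line and 6 gene lists in colour. Interferon response genes, stratified keratins and S100 genes spread to the right as far as KRT4 at 8.64, and mitosis, replication and pluripotency genes lie to the left, as far as POU5F1 at -4.25.

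The largest rise was that of KRT4, a keratin of non-cornifying mucosal epithelium such as that of the oesophagus. Its values were 8.72 and 8.33 on the IVDS3 arrays and -0.11 and -0.11 on the IVDS2 arrays, a difference of 8.64 ± 0.20 or 399-fold (adjusted p = 3.69e-08). Both IVDS3 arrays lay above the other 8, of which the IVDS2-C arrays were at 0.02 and 0.32. Among the 15 largest rises, 4 further genes belong to stratified or barrier epithelium. S100A9, a calcium-binding alarmin of inflamed epithelium and myeloid cells, was at 7.66 and 7.30 in IVDS3 and -0.21 and -0.11 in IVDS2, and its partner S100A8 was at 6.96 and 6.17 and 0.05 and -0.08. These 2 proteins form a heterodimer, calprotectin, and their genes rose by 7.64 ± 0.22 and 6.58 ± 0.22. ZNF750, a zinc finger factor that drives terminal differentiation of the epidermis, rose by 6.69 ± 0.43 (IVDS3 6.68 and 6.70, IVDS2 0.18 and -0.18). KRTDAP, a secreted protein of suprabasal keratinocytes, rose by 6.53 ± 0.22 (IVDS3 6.88 and 6.07, IVDS2 -0.14 and 0.03). The tight junction gene CLDN8 rose by 7.37 ± 0.39, from 0.04 and -0.22 to 7.42 and 7.15, and SERPINB2, an inhibitor of plasminogen activators, by 6.69 ± 0.16, from -0.03 and 0.09 to 6.93 and 6.52. BLNK, an adaptor best known from B cell receptor signalling, rose by 6.74 ± 0.39 (IVDS3 6.76 and 6.56, IVDS2 0.14 and -0.30). The other 7 of the 15 were interferon-response genes, described in their own right further on. In all 15 the IVDS3 arrays lay above every other array of the series, and lying above the IVDS2 arrays was a condition of the choice.

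The largest fall was that of LIX1, a gene of the developing limb and nervous system, by 4.62 ± 0.45 on the log2 scale. Its values were -3.86 and -3.79 in IVDS3 and 0.85 and 0.74 in IVDS2 (adjusted p = 7.94e-05). GLDC, the glycine decarboxylase of the mitochondrial glycine cleavage system, fell by 4.47 ± 0.36 (IVDS3 -4.25 and -2.95, IVDS2 0.78 and 0.96). POU5F1, the core pluripotency factor OCT4, fell by 4.25 ± 0.79 (IVDS3 -4.55 and -4.37, IVDS2 0.50 and -0.91), and SALL4, a zinc finger factor of the same network, by 3.91 ± 0.36 (IVDS3 -3.95 and -3.79, IVDS2 -0.06 and 0.14). SFRP1 and SFRP2, secreted WNT antagonists, fell by 3.92 ± 0.38 and 4.09 ± 0.29. BMP4, a ligand that patterns mesoderm and surface ectoderm, fell by 3.90 ± 0.33 (IVDS3 -2.85 and -2.69, IVDS2 0.94 and 1.32). ACTC1, cardiac actin, and NPPB, a natriuretic peptide of heart muscle, fell by 4.12 ± 0.52 and 3.73 ± 0.52, and the sarcomere gene ACTN3 by 4.02 ± 0.38. PRTG, a receptor of early neural and mesodermal tissue, KBTBD8, a substrate adaptor of a ubiquitin ligase that acts in neural crest specification, and RBPMS2, an RNA-binding protein of smooth muscle precursors, fell by 3.56 ± 0.33, 3.68 ± 0.27 and 3.48 ± 0.23. The rule that chose these genes required both IVDS3 arrays to lie below both IVDS2 arrays, so this order is no further support. The 2 IVDS3 arrays were apart in GLDC and ACTC1, so that the falls were 3.82 and 3.46 when IVDS3 replicate 1 was left out and 5.11 and 4.77 when replicate 2 was.

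HAPLN1 and CCKBR were among the 15 largest falls with a different course over the series. HAPLN1, a link protein of the hyaluronan matrix, was at -4.90 and -4.59 in ES cells, 2.27 and 2.37 in IVDS2 and -1.40 and -0.80 in IVDS3, so that the IVDS3 arrays lay between the other groups. CCKBR, the gastrin and cholecystokinin receptor, was at -1.04 and -0.43 in ES cells, 2.45 and 2.70 in IVDS2 and -0.89 and -1.21 in IVDS3. The falls were 3.42 ± 0.27 and 3.63 ± 0.42.

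**Figure D2:**
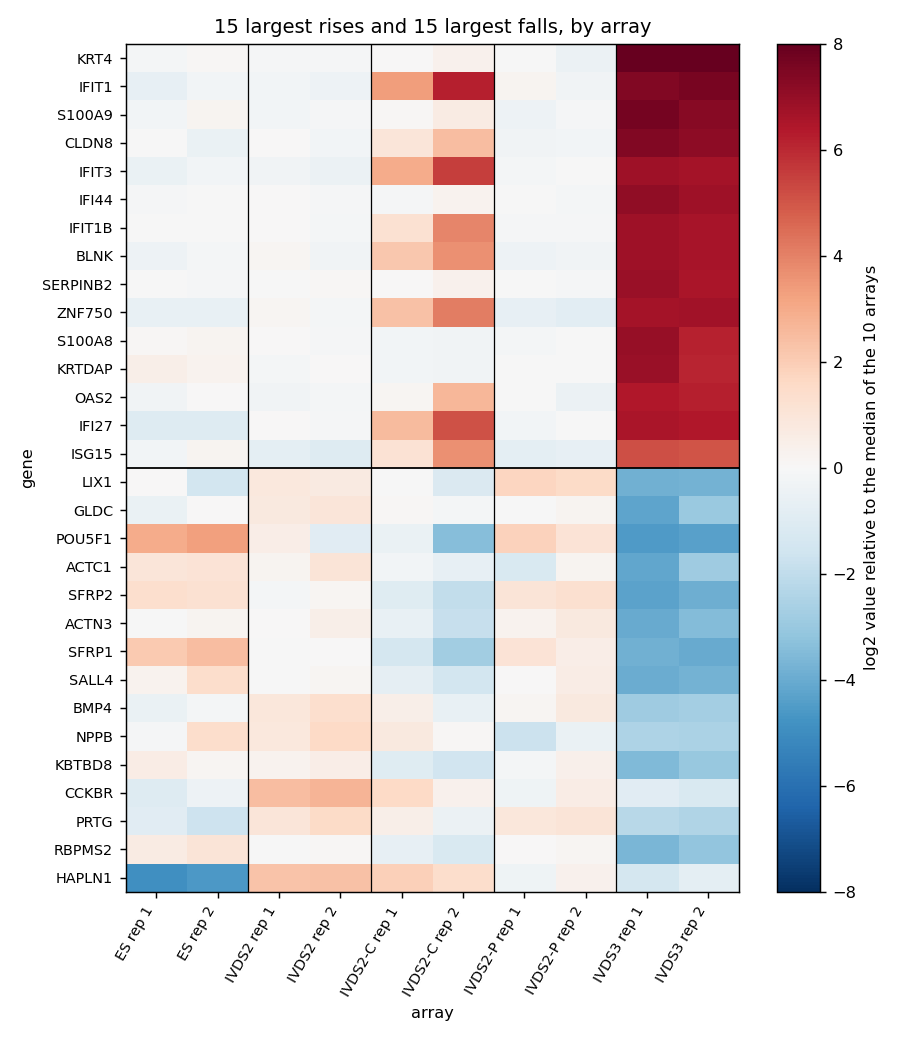
Values of the 15 genes with the largest rises (upper rows) and the 15 with the largest falls (lower rows) on each of the 10 arrays, as log2 relative to the median of the 10 arrays (red above it, blue below). The 2 IVDS3 columns are red in every upper row, several interferon genes are also red in the IVDS2-C columns, and HAPLN1 is low in ES cells, high in IVDS2 and between them in IVDS3.

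The interferon response was the most strongly raised of the 55 gene lists. Of 38 measured interferon-response genes, 36 rose and 1 fell, against 17.6% and 22.2% of all genes, with a median difference of 3.57 against -0.10 over all genes. IFIT1, an RNA-binding protein that blocks translation of viral messages, was at 7.43 and 7.61 in IVDS3 and -0.22 and -0.43 in IVDS2, a difference of 7.84 ± 0.71 or 230-fold (adjusted p = 5.16e-05). Its neighbours in the family, IFIT3 and the primate gene IFIT1B, rose by 7.11 ± 0.63 and 6.78 ± 0.65. IFI44 was at 7.10 and 6.79 in IVDS3 and 0.01 and -0.07 in IVDS2, a difference of 6.97 ± 0.15 (adjusted p = 3.69e-08). OAS2, an enzyme that makes the signal for viral RNA breakdown, rose by 6.52 ± 0.61 (IVDS3 6.38 and 6.23, IVDS2 -0.28 and -0.15). ISG15, a ubiquitin-like protein that is joined to other proteins during the response, rose by 6.00 ± 0.60 (IVDS3 5.18 and 5.03, IVDS2 -0.75 and -1.03), and IFI27 by 6.51 ± 0.61. These genes are among the 15 largest rises, which were chosen only where both IVDS3 arrays lay above both IVDS2 arrays. MX1 and MX2, dynamin-like GTPases that trap viral particles, RIGI and IFIH1, the cytoplasmic sensors of viral RNA, and BST2, a tether that holds virus at the cell surface, were named after their values were seen. They rose by 4.42 ± 0.51, 5.16 ± 0.32, 5.04 ± 0.58, 4.94 ± 0.24 and 3.63 ± 0.35. The exceptions were DHX58, a regulator of the RNA sensors, which fell by 0.92 ± 0.18 (adjusted p = 0.00328), and TRIM25, at -0.02 ± 0.14 (adjusted p = 0.926), also named after its value was seen. In 34 of the 38 genes the IVDS3 arrays lay outside all 8 other arrays, against 40.1% of all genes in either direction.

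The rise was not shared by the whole of stage 2. The median of the 38 genes was -0.13 and 0.00 on the ES arrays, -0.09 and -0.16 on IVDS2, -0.12 and -0.27 on IVDS2-P, 0.15 and 1.42 on IVDS2-C and 3.37 and 3.11 on IVDS3. The 2 IVDS2-C arrays thus differed from each other by more than any other pair. IFIT1 was at 3.36 and 6.25 on the IVDS2-C arrays and at 0.22 and -0.29 on the IVDS2-P arrays. IFI44 was at -0.07 and 0.26 on IVDS2-C, apart from the IVDS3 arrays by 6.85 ± 0.15 (adjusted p = 4.31e-08). Probe sets for viral sequences, 377 in all, had medians of -0.03 and -0.10 on the IVDS3 arrays and 0.03 and 0.05 on the IVDS2 arrays. Their highest values were 0.33 and 0.44 on IVDS3 and 0.49 and 0.86 on IVDS2. A median over many viruses cannot show a single one, and centred values cannot show a virus present on all arrays. The presence of viral RNA was not tested.

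Genes that sense nucleic acid or carry the interferon signal changed less uniformly. Of 15 measured, 7 rose and 1 fell, with a median of 0.32. TLR3, the endosomal receptor for double-stranded RNA, rose by 3.06 ± 0.19 (IVDS3 3.31 and 2.78, IVDS2 -0.04 and 0.01), and STING1, the adaptor that responds to cytoplasmic DNA, by 2.50 ± 0.18 (IVDS3 2.70 and 2.17, IVDS2 -0.09 and -0.03). IL10RB, a shared chain of the receptors for interferon lambda and interleukin 10, rose by 1.79 ± 0.15, the kinase JAK2 by 1.29 ± 0.19 and the transcription factor IRF2 by 1.35 ± 0.19. IFNL1, the only interferon gene of the list to be called, had values of 0.46 and 0.82 in IVDS3 and -0.24 and -0.05 in IVDS2 and a difference of 0.78 ± 0.24 (adjusted p = 0.0289). That call was lost without IVDS2 replicate 1, IVDS2 replicate 2 or IVDS3 replicate 2 (adjusted p = 0.128, 0.0687 and 0.170). The fall was that of IFNAR2, a receptor chain for type I interferon, by 0.45 ± 0.13, and the count of falls was 0 without IVDS2 replicate 1 or IVDS3 replicate 1.

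Antigen presentation by class I molecules rose with them. Of 13 measured genes, 10 rose and 0 fell, with a median of 1.32. B2M, the light chain of every class I molecule, was at 2.67 and 2.60 in IVDS3 and -0.99 and -0.83 in IVDS2, a difference of 3.55 ± 0.32 or 11.7-fold. PSMB8 and PSMB10, catalytic subunits of the immunoproteasome that cuts peptides for display, rose by 3.70 ± 0.27 and 2.50 ± 0.20. TAP1, a subunit of the peptide transporter, rose by 3.25 ± 0.36, and NLRC5, the transactivator of class I genes, by 1.77 ± 0.19. CTSS, a lysosomal protease of the class II pathway, rose by 2.06 ± 0.14.

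Among 47 genes of NF-kappa-B signalling, cytokines and chemokines, 19 rose and 5 fell, with a median of 0.24. IL1RN, the natural antagonist of the interleukin 1 receptor, rose most, by 5.09 ± 0.25 (IVDS3 5.05 and 4.80, IVDS2 -0.12 and -0.20). CXCL10, a T cell attractant that interferon induces, rose by 4.86 ± 0.66 (IVDS3 4.46 and 4.14, IVDS2 -0.56 and -0.56). TNFSF10, which encodes the death ligand TRAIL, rose by 3.20 ± 0.14, IL33, an alarmin held in the nuclei of barrier cells, by 3.01 ± 0.17, and TNFSF13B, a B cell survival factor, by 2.69 ± 0.16. NFKBIZ, a nuclear regulator of NF-kappa-B, rose by 2.54 ± 0.30. CXCL12, the stromal chemokine that holds stem cells in their niche, fell by 0.95 ± 0.20. The count of falls was 1 without IVDS3 replicate 2, 2 without IVDS2 replicate 2 or IVDS3 replicate 1 and 3 without IVDS2 replicate 1.

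**Figure D3:**
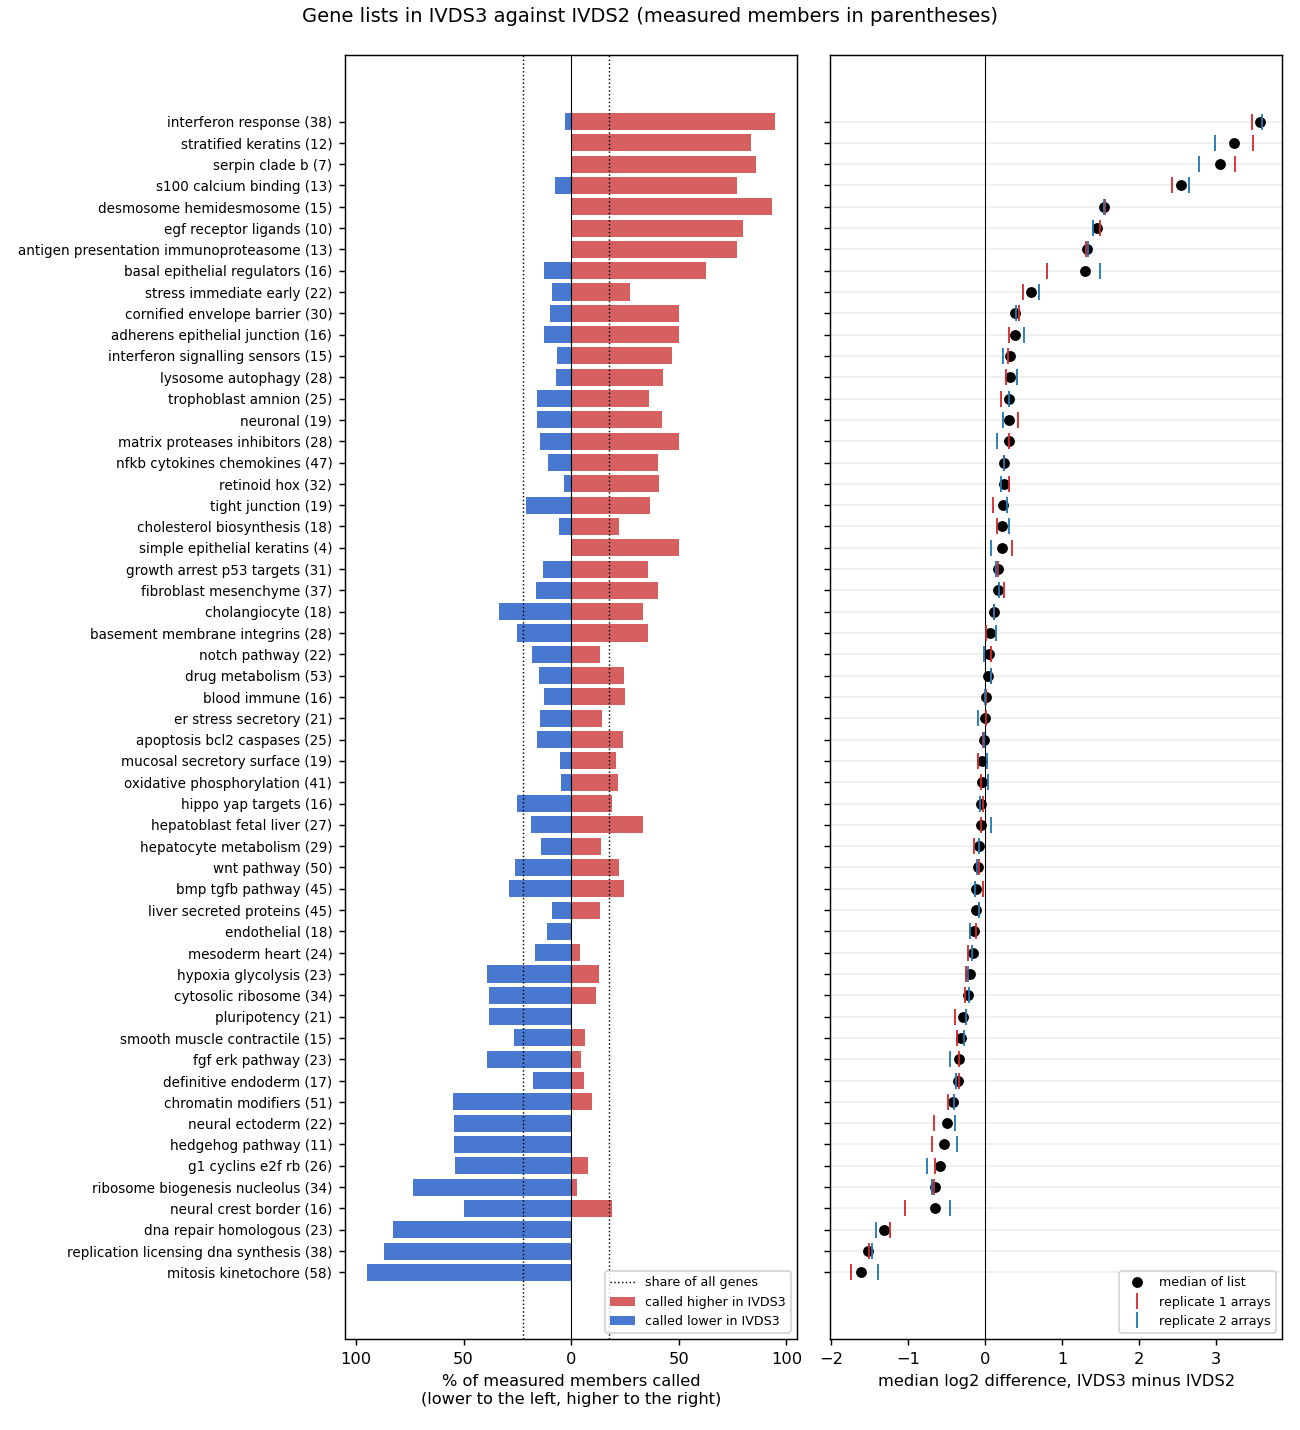
Left, percentage of the measured genes of each of the 55 lists called lower (blue, to the left) or higher (red, to the right) in IVDS3, with dotted lines at the shares of all genes (22.2% and 17.6%). Right, median log2 difference of each list (black points), with the medians for the replicate 1 and replicate 2 arrays as ticks. Interferon response, stratified keratins, clade B serpins and S100 genes stand at the top with medians from 3.57 to 2.54, and DNA repair, replication and mitosis at the bottom, from -1.32 to -1.62.

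Keratins of stratified epithelium rose as a group. Of 12 measured, 10 rose and 0 fell, with a median of 3.23. The basal keratins KRT5 and KRT14 were not among the 12. KRT1, the type II keratin of suprabasal epidermis, was at 5.67 and 5.43 in IVDS3 and -0.18 and 0.01 in IVDS2, a difference of 5.63 ± 0.21 or 49.7-fold (adjusted p = 4.06e-07). KRT10, its partner in suprabasal filaments, differed by far less, 0.86 ± 0.12 (IVDS3 0.73 and 0.59, IVDS2 -0.13 and -0.26). KRT13, the mucosal partner of KRT4, rose by 3.27 ± 0.23 (IVDS3 3.68 and 2.96, IVDS2 0.11 and 0.00), and KRT16, a keratin of activated and wounded epidermis, by 3.20 ± 0.17. KRT3, a keratin of the corneal epithelium, rose by 3.79 ± 0.12 (IVDS3 3.97 and 3.77, IVDS2 0.05 and 0.10). KRT23 and KRT24, less studied type I keratins, rose by 5.29 ± 0.12 and 5.04 ± 0.13. KRT78 and KRT80 rose by 0.66 ± 0.13 and 0.72 ± 0.14. KRT75, a keratin of the hair follicle, and KRT2, a keratin of the upper epidermis, were at 0.37 ± 0.16 and 0.08 ± 0.16 and were not called (adjusted p = 0.0898 and 0.727). KRT75 was called higher without either ES array (adjusted p = 0.0439). The median of the list was 3.54 and 3.10 on the IVDS3 arrays, -0.07 and 0.00 on IVDS2, 0.01 and 0.15 on IVDS2-C, -0.10 and -0.25 on IVDS2-P and -0.17 and 0.05 on ES.

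Of 4 measured keratins of simple epithelium, 2 rose and 0 fell, with a median of 0.21. KRT7, a keratin of glands and trophoblast, rose by 1.78 ± 0.34 (IVDS3 1.63 and 1.94, IVDS2 -0.38 and 0.38). KRT19, a keratin of ducts and of many simple and basal epithelia, was at 1.38 and 1.17 in IVDS3 and 0.39 and 0.63 in IVDS2 and rose by 0.77 ± 0.20 (adjusted p = 0.0139), a call that was lost without IVDS2 replicate 1 or IVDS3 replicate 1 (adjusted p = 0.0837 and 0.0942). KRT18, which pairs with KRT8 in simple epithelium and liver cells, was at -0.32 and -0.68 in IVDS3 and -0.03 and -0.28 in IVDS2, a difference of -0.34 ± 0.15 that was not called (adjusted p = 0.108, 95% confidence interval -0.69 to 0.00). KRT8 was at -0.60 ± 0.23 (adjusted p = 0.0682) and was called lower without IVDS2 replicate 1 or without either IVDS2-P array (adjusted p = 0.0459 and 0.0436).

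Proteins of the cornified envelope and the skin barrier rose in part. Of 30 measured genes, 15 rose and 3 fell, with a median of 0.39. SCEL (sciellin) and CSTA (cystatin A), both precursors of the envelope, rose by 5.74 ± 0.25 and 5.72 ± 0.38, from -0.15 and -0.09 and from -0.50 and -0.12 in IVDS2 to 5.84 and 5.40 and to 5.43 and 5.39 in IVDS3. SPRR1B, a small proline-rich protein that is cross-linked into the envelope, rose by 4.29 ± 0.18, and IVL, involucrin, by 2.82 ± 0.27 (IVDS3 3.39 and 2.38, IVDS2 -0.04 and 0.17). AQP3, the water and glycerol channel of the epidermis, rose by 4.28 ± 0.38, and SFN, an adaptor protein of keratinocytes that p53 induces, by 3.62 ± 0.31. The falls were those of KLK7, a protease of the horny layer, by 1.01 ± 0.21, CNFN by 0.61 ± 0.13 and CRNN by 0.44 ± 0.12. The CRNN call was lost without IVDS2 replicate 2, IVDS3 replicate 1 or IVDS3 replicate 2 (adjusted p = 0.122, 0.0757 and 0.0976). LORICRIN, the gene for the main protein of the finished cornified envelope, was named after its value was seen. It was at 0.44 and -0.15 in IVDS3 and 0.01 and 0.06 in IVDS2, a difference of 0.11 ± 0.20 (adjusted p = 0.686, 95% confidence interval -0.33 to 0.56).

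S100 genes, many of which lie in the epidermal differentiation complex, and clade B serpins, intracellular protease inhibitors of squamous cells, gave similar counts. Of 13 S100 genes, 10 rose, with a median of 2.54. S100P rose by 4.87 ± 0.35 (IVDS3 4.72 and 4.87, IVDS2 -0.12 and -0.03), S100A6 by 3.87 ± 0.18, S100A14 by 2.99 ± 0.17 and S100A11 by 2.68 ± 0.18. The gene that fell was S100A1, a calcium sensor of heart muscle, by 0.74 ± 0.18 (adjusted p = 0.0113), a call that was lost without IVDS2 replicate 2 or IVDS3 replicate 1 (adjusted p = 0.0808 and 0.0732). Of 7 clade B serpins, 6 rose and 0 fell, with a median of 3.05. Beside SERPINB2, these were SERPINB7, a keratinocyte inhibitor, by 5.65 ± 0.21, SERPINB13 by 3.30 ± 0.23, SERPINB5 (maspin) by 3.05 ± 0.15, SERPINB6 by 1.47 ± 0.22 and SERPINB9, the granzyme inhibitor, by 0.96 ± 0.16. SERPINB12 was at 0.13 ± 0.12 and was not called (adjusted p = 0.444).

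Desmosomes and hemidesmosomes, the junctions that tie keratin filaments to neighbouring cells and to the basement membrane, rose almost throughout. Of 15 measured genes, 14 rose and 0 fell, with a median of 1.54. DSG3, the desmosomal cadherin of the lower layers of stratified epithelium, was at 5.93 and 5.66 in IVDS3 and 0.15 and -0.17 in IVDS2, a difference of 5.80 ± 0.40 or 55.9-fold. DSG1 and DSC1, the cadherins of the upper layers, rose by 3.28 ± 0.25 and 2.52 ± 0.17, and DSC3, of the lower layers, by 2.89 ± 0.18. DSP, desmoplakin, which anchors the filaments, rose by 2.00 ± 0.14 and PERP, a stratified-epithelium junction protein, by 2.10 ± 0.25. The integrin chains of the hemidesmosome, ITGA6 and ITGB4, rose by 1.41 ± 0.15 and 0.80 ± 0.13. The gene not called was DSG2, the desmosomal cadherin of simple epithelium and heart, named after its value was seen, at -0.07 ± 0.13 (adjusted p = 0.729).

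Transcription factors of basal and differentiating epithelium rose in 10 and fell in 2 of 16 cases, with a median of 1.30. TP63, the master factor of stratified epithelium, was at 0.52 and 0.79 in IVDS3 and 0.14 and -0.10 in IVDS2, a modest difference of 0.63 ± 0.14 (adjusted p = 0.00540). Other factors of the list rose by more. Beside ZNF750, these were ELF5 by 3.51 ± 0.23, KLF5 by 3.17 ± 0.39, KLF4 by 2.75 ± 0.27, GRHL1 by 2.44 ± 0.20 and the splicing regulator ESRP2 by 1.92 ± 0.23. PRDM1, a repressor that acts in terminal differentiation of several lineages, fell by 1.66 ± 0.23 (IVDS3 -0.43 and -0.49, IVDS2 1.43 and 0.96). GRHL3 fell by 0.65 ± 0.17, a call lost without IVDS2 replicate 2 or IVDS3 replicate 1 (adjusted p = 0.0793 and 0.0950). The count of falls was 1 without IVDS3 replicate 1.

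Cell junction genes outside the desmosome were mixed. Of 19 tight junction genes, 7 rose and 4 fell (falls 2 without IVDS2 replicate 2 or IVDS3 replicate 1 or 2). CLDN1, the claudin of the epidermal barrier, rose by 4.22 ± 0.37 (IVDS3 3.95 and 3.71, IVDS2 -0.52 and -0.26), CLDN23 by 2.91 ± 0.30 and CLDN16 by 2.21 ± 0.11. CLDN6, a claudin of embryonic epithelium and pluripotent cells, fell by 1.73 ± 0.23 (IVDS3 -1.79 and -1.03, IVDS2 0.25 and 0.40). Of 16 genes of adherens junctions and epithelial surfaces, 8 rose and 2 fell (rises 5 without IVDS2 replicate 2 or IVDS3 replicate 2). RAB25, an epithelial recycling GTPase, rose by 2.45 ± 0.28, the membrane protease ST14 (matriptase) by 1.31 ± 0.15 and NECTIN4 by 1.30 ± 0.16. Of 19 mucosal and secretory surface genes, 4 rose. TMPRSS11E, a squamous membrane protease, rose by 5.91 ± 0.39 (IVDS3 6.01 and 5.80, IVDS2 0.10 and -0.12), the membrane mucin MUC15 by 2.86 ± 0.35, and AGR2, a disulphide isomerase of mucus-making cells, by 2.54 ± 0.14.

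**Figure D4:**
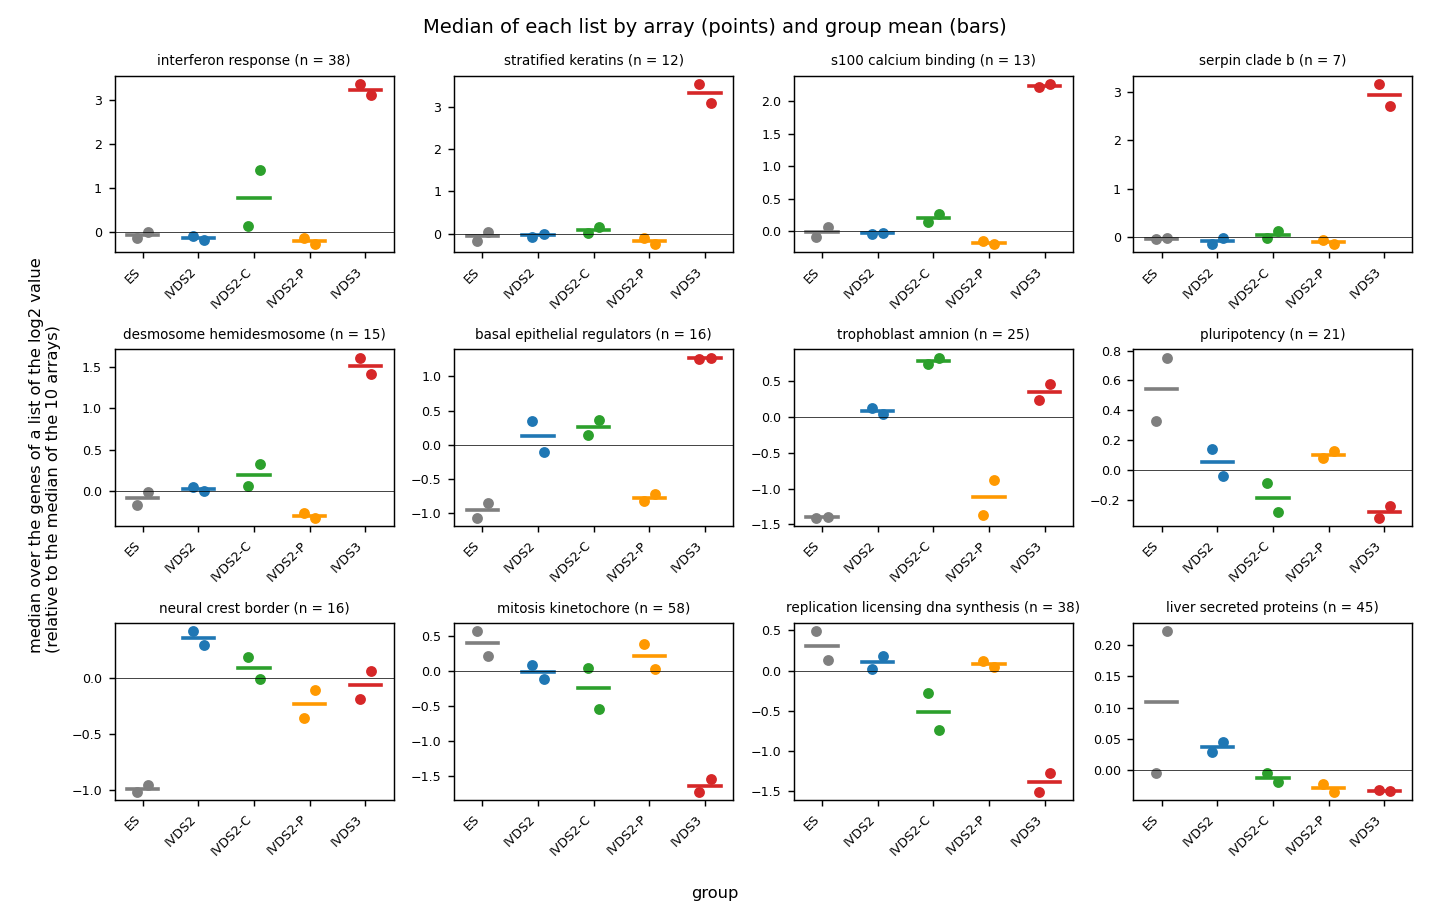
Median over the genes of 12 lists (y axis, log2 relative to the median of the 10 arrays) on each array (points) and the mean of the pair (bars), by group (x axis). The keratin, S100, serpin and desmosome medians are high on the IVDS3 arrays alone, the interferon medians on the IVDS3 arrays and 1 IVDS2-C array, and the mitosis medians are lowest on IVDS3, at -1.73 and -1.55.

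Genes of trophoblast and amnion, tissues that primate ES cells can also form, rose in 9 and fell in 4 of 25 cases, with a median of 0.31. GABRP, a GABA receptor subunit of amnion and other epithelia, rose by 4.10 ± 0.23 (IVDS3 4.10 and 4.09, IVDS2 -0.15 and 0.15). VTCN1, an inhibitory ligand of the B7 family, rose by 2.59 ± 0.32, WNT6 by 2.63 ± 0.31 and VGLL1, a cofactor of TEAD factors, by 2.16 ± 0.29. Of the genes that fell, TEAD4, a trophectoderm factor, did so by 1.73 ± 0.15 (IVDS3 -1.47 and -1.06, IVDS2 0.55 and 0.38). The other falls were those of DLX3 and HAND1, each at least 2-fold, and of GATA2, at -0.96 (adjusted p = 0.00682). The DLX3 call was lost without IVDS2 replicate 1 or IVDS3 replicate 1. That of HAND1 was lost without IVDS2 replicate 2 or IVDS3 replicate 2, and that of GATA2 without IVDS3 replicate 1. The count of falls was 2 without IVDS3 replicate 1. CDX2, which specifies trophectoderm, and GATA3, which acts with it, were named after their values were seen and were not called, at -0.16 ± 0.13 and 0.92 ± 0.33 (adjusted p = 0.349 and 0.0526).

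Receptors and ligands of the EGF family, which drive growth of epithelium, rose in 8 of 10 measured genes and fell in 0, with a median of 1.45. EGF itself rose by 4.12 ± 0.15 (IVDS3 4.33 and 4.10, IVDS2 0.02 and 0.17) and its receptor EGFR by 3.22 ± 0.43 (IVDS3 2.62 and 3.82, IVDS2 -0.11 and 0.11). The EGFR rise was 2.62 when IVDS3 replicate 2 was left out and 3.82 when replicate 1 was. The ligand AREG (amphiregulin) rose by 2.99 ± 0.69 (IVDS3 2.59 and 3.11, IVDS2 -0.20 and -0.08), which was not called without IVDS3 replicate 2 (adjusted p = 0.0522). TGFA, another ligand of EGFR, rose by 0.72 ± 0.17, which was not called without IVDS2 replicate 2 or IVDS3 replicate 1 (adjusted p = 0.0575 and 0.0745). The ligand BTC rose by 2.51 ± 0.17, the receptors ERBB3 and ERBB2 by 1.43 ± 0.19 and 0.88 ± 0.13, and NRG4, a ligand of ERBB4, by 1.47 ± 0.16. HBEGF and NRG1 were not called, at 0.06 ± 0.18 and -0.03 ± 0.14 (adjusted p = 0.822 and 0.882).

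Of 50 WNT pathway genes, 11 rose and 13 fell, shares near the 17.6% and 22.2% of all genes, and the median of -0.10 equalled that of all genes. Among the ligands, WNT3, WNT10A, WNT6 and WNT7A rose by 3.29 ± 0.28, 2.84 ± 0.34, 2.63 ± 0.31 and 1.65 ± 0.14. WNT3 was at 2.92 and 3.13 in IVDS3 and -0.27 and -0.24 in IVDS2. Among the receptors, FZD7, the main Frizzled of pluripotent cells, fell by 3.06 ± 0.26 (IVDS3 -3.01 and -3.03, IVDS2 0.19 and -0.11), and FZD6 rose by 0.95 ± 0.15. The antagonists SFRP1 and SFRP2 fell, as given, and DKK3 and KREMEN1 rose by 1.56 ± 0.22 and 1.31 ± 0.16. The antagonist DKK1 fell by 2.13 ± 0.56, and the size of that fall was 1.37 and not called without IVDS2 replicate 2 (adjusted p = 0.111) and 2.88 without IVDS2 replicate 1. It was also not called without IVDS3 replicate 1 (adjusted p = 0.0919). The agonist RSPO2 fell by 2.17 ± 0.42.

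Of 45 genes of BMP and TGF-beta signalling, 11 rose and 13 fell, with a median of -0.12, also near the shares and the median of all genes. The ligands BMP4 and BMP2 fell by 3.90 ± 0.33 and 1.49 ± 0.24, and so did FST (follistatin), a secreted activin inhibitor, by 3.06 ± 0.48, BMPER, a secreted regulator of BMPs, by 2.85 ± 0.21, and ACVR2B, an activin receptor, by 1.75 ± 0.25. INHBA and INHA, which encode subunits of activin and inhibin, rose by 1.58 ± 0.22 and 1.61 ± 0.23, and the stress-induced ligand GDF15 by 2.87 ± 0.36 (IVDS3 2.75 and 2.74, IVDS2 -0.14 and -0.11). ID1, a direct BMP target, was named after its value was seen and fell by 1.19 ± 0.32 (adjusted p = 0.0163).

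FGF signalling, which keeps primate ES cells undifferentiated, fell in 9 and rose in 1 of 23 genes (falls 3 without IVDS3 replicate 2 and 5 without IVDS2 replicate 1). FGF2 fell by 1.89 ± 0.28 (IVDS3 -2.25 and -1.83, IVDS2 0.22 and -0.52) and its receptor FGFR1 by 1.83 ± 0.15 (IVDS3 -1.68 and -1.58, IVDS2 0.19 and 0.21). FGFBP1, a carrier protein that frees FGFs from the matrix in epithelium, rose by 2.24 ± 0.26. Of 11 Hedgehog pathway genes, 6 fell and 0 rose, with a median of -0.53. The co-receptors CDON and GAS1 fell by 1.99 ± 0.16 and 1.72 ± 0.21, the signal transducer SMO by 1.07 ± 0.14, the ligand trap HHIP by 0.92 ± 0.19 and the transcription factor GLI2 by 0.90 ± 0.14. PTCH1 and GLI1, the usual target genes of the pathway, were not called, at -0.08 ± 0.15 and 0.34 ± 0.15 (adjusted p = 0.704 and 0.116), nor were SUFU, DHH and IHH, at -0.27 ± 0.10, -0.16 ± 0.13 and -0.11 ± 0.13. GLI1 was called higher with the replicate block (adjusted p = 0.0455), and SUFU lower by its most variable probe set (adjusted p = 0.0226). BOC, the sixth of the falls, lost its call under 5 alternatives, with adjusted p from 0.0523 to 0.181, and fell by 0.53 ± 0.17.

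Retinoid and HOX genes rose in 13 and fell in 1 of 32 cases, with a median of 0.24. CYP26A1, the enzyme that breaks down retinoic acid and is itself induced by it, rose by 2.98 ± 0.45 (IVDS3 1.08 and 1.59, IVDS2 -1.47 and -1.81). The HOX cofactors PBX3 and MEIS1 rose by 2.69 ± 0.15 and 2.21 ± 0.30, and HOXA3, HOXA5 and HOXD4 by 1.79 ± 0.15, 1.75 ± 0.15 and 1.12 ± 0.17. CRABP2, a carrier of retinoic acid in the cell, fell by 1.80 ± 0.19. In the Notch pathway, 3 of 22 genes rose and 4 fell, shares of 13.6% and 18.2% that were near the 17.6% and 22.2% of all genes. The ligand JAG2, which acts in stratified epithelium, rose by 1.73 ± 0.24. The count of rises was 5 without IVDS2 replicate 1, and that of falls 1 without IVDS2 replicate 1 or IVDS3 replicate 1 and 2 without IVDS3 replicate 2.

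DNA replication genes fell. Of 38 measured, 33 fell and 0 rose, with a median of -1.52 against -0.10 over all genes. MCM3, a subunit of the replicative helicase, was at -3.17 and -2.82 in IVDS3 and 0.07 and 0.26 in IVDS2, a fall of 3.16 ± 0.23 on the log2 scale or 8.96-fold (adjusted p = 1.59e-05). MCM2 and MCM5, of the same ring, fell by 2.80 ± 0.23 and 2.72 ± 0.22, and MCM10, which helps to activate it, by 3.05 ± 0.27. CDC6, which loads the helicase at origins, fell by 2.83 ± 0.28, and DTL, which removes the licensing factor CDT1, by 2.87 ± 0.24.

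Mitosis and kinetochore genes fell in 55 of 58 cases and rose in 0, with a median of -1.62. KIF2C, a kinesin that takes microtubules apart at the centromere, was at -2.49 and -2.21 in IVDS3 and 0.03 and -0.18 in IVDS2, a fall of 2.27 ± 0.26. CCNB2, a mitotic cyclin, fell by 2.24 ± 0.34, the phosphatase CDC25C by 2.15 ± 0.29, the kinesin KIF18A by 2.12 ± 0.35, and the kinetochore genes NUF2 and KNTC1 by 2.09 ± 0.20 and 2.08 ± 0.22. MKI67, which encodes the proliferation marker Ki-67, fell by 1.44 ± 0.25 (IVDS3 -1.48 and -1.46, IVDS2 0.02 and -0.09). In 55 of the 58 genes the IVDS3 arrays lay outside all 8 other arrays, against 40.1% of all genes. The 3 genes not called, named after their values were seen, were ANLN, PBK and SGO1, at -0.32 ± 0.23, -0.28 ± 0.13 and -0.03 ± 0.20 (adjusted p = 0.305, 0.130 and 0.925).

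Genes of homologous recombination and the Fanconi pathway, which repair breaks and crosslinks behind the replication fork, fell in 19 of 23 cases and rose in 0, with a median of -1.32. FANCD2, the central protein of the Fanconi pathway, was at -2.13 and -2.12 in IVDS3 and 0.34 and 0.03 in IVDS2, a fall of 2.31 ± 0.25. The checkpoint kinase CHEK1 fell by 2.29 ± 0.21, the nuclease EXO1 by 2.19 ± 0.25, BRCA1 by 2.09 ± 0.20, and RAD51AP1 and RAD54L, which assist strand exchange, by 2.23 ± 0.23 and 2.05 ± 0.24.

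Regulators of the G1 phase followed in part. Of 26 genes, 14 fell and 2 rose (falls 9 without IVDS2 replicate 2 or IVDS3 replicate 1). CCNE1, cyclin E, fell by 1.84 ± 0.21 (IVDS3 -1.87 and -1.57, IVDS2 0.19 and 0.05), E2F7, E2F5 and E2F3 by 1.98 ± 0.24, 1.78 ± 0.14 and 1.41 ± 0.19, MYBL2, which acts with E2F factors, by 1.96 ± 0.19 and MYCN by 1.50 ± 0.26. The rises were those of CCND3, cyclin D3, by 2.97 ± 0.23 (IVDS3 2.55 and 2.94, IVDS2 -0.35 and -0.10), and RBL2, the pocket protein of resting cells, by 0.99 ± 0.13.

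Growth arrest and p53 target genes did not rise together, with 11 of 31 higher, 4 lower and a median of 0.16. CDKN1A, the inhibitor of cyclin-dependent kinases that p53 induces, was at 3.61 and 3.29 in IVDS3 and -0.20 and -0.23 in IVDS2, a rise of 3.67 ± 0.21 or 12.7-fold (adjusted p = 4.53e-06). GADD45B, a stress sensor, rose by 2.30 ± 0.47 and the inhibitor CDKN2D by 0.96 ± 0.14. The p53 targets TP53I3 and BAX fell by 1.08 ± 0.11 and 0.78 ± 0.13. Among 25 apoptosis genes CASP4, an inflammatory caspase that interferon induces, rose most, by 4.39 ± 0.31 (IVDS3 4.40 and 4.13, IVDS2 -0.14 and -0.11), followed by CFLAR, an inhibitor of caspase 8, by 1.74 ± 0.15.

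The pluripotency genes called were all lower, 8 of 21, with a median of -0.29. Beside POU5F1 and SALL4, LIN28B, which blocks the let-7 microRNAs, fell by 3.35 ± 0.27 (IVDS3 -3.64 and -2.87, IVDS2 0.04 and 0.14). DPPA4 fell by 2.81 ± 0.53, DNMT3B, the de novo DNA methyltransferase of the early embryo, by 2.53 ± 0.37, SALL2 by 2.09 ± 0.17, FOXD3 by 1.69 ± 0.35 and SOX2 by 1.11 ± 0.21 (IVDS3 -1.43 and -1.23, IVDS2 0.01 and -0.46). NANOG was not called, at 0.47 and 0.41 in IVDS3 and -0.03 and 0.03 in IVDS2, a difference of 0.44 ± 0.19 (adjusted p = 0.105, 95% confidence interval 0.00 to 0.88). Without either ES array it was called higher (adjusted p = 0.0143), as it was in a fit of the 4 arrays alone (adjusted p = 0.0173). The cell type label ESC thus stands on IVDS3 samples in which POU5F1 was lower than in IVDS2 by 19.1-fold. The IVDS2 arrays were apart in this gene, and the fold was 11.7 when IVDS2 replicate 1 was left out and 31.2 when replicate 2 was.

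Chromatin modifiers fell in 28 and rose in 5 of 51 cases, with a median of -0.42. TET1, which oxidises methylcytosine in pluripotent cells, fell by 2.74 ± 0.32 (IVDS3 -2.84 and -2.65, IVDS2 0.22 and -0.23), and its relative TET2 rose by 1.48 ± 0.10 (IVDS3 1.24 and 1.25, IVDS2 -0.29 and -0.19). HELLS, a remodeller needed for DNA methylation, fell by 2.41 ± 0.21, the histone chaperones CHAF1A and ASF1B, which assemble chromatin behind the fork, by 2.21 ± 0.19 and 2.28 ± 0.23, and the histone methyltransferase SUV39H2 by 1.88 ± 0.17. SMARCA2, an ATPase of the SWI/SNF remodelling complex, rose by 3.65 ± 0.35 (IVDS3 2.64 and 2.50, IVDS2 -0.90 and -1.26), and the demethylase KDM4C by 1.68 ± 0.22.

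Genes of early neural ectoderm were lower in 12 of 22 cases and higher in 0, with a median of -0.50. Beside the SFRP genes and SOX2, LMX1A, a factor of the roof plate and midbrain, fell by 2.64 ± 0.22 (IVDS3 -2.03 and -2.12, IVDS2 0.41 and 0.71), EMX2, of the forebrain, by 1.97 ± 0.32, SOX3 by 1.86 ± 0.11 and ZIC5 by 1.31 ± 0.13. Neural crest and neural plate border genes fell in 8 and rose in 3 of 16 cases, with a median of -0.66. SOX9, MSX1, PAX3 and SNAI1 fell by 1.56 ± 0.22, 1.51 ± 0.23, 1.47 ± 0.20 and 1.12 ± 0.23. TWIST1, a mesenchymal factor, rose by 2.05 ± 0.35 (IVDS3 0.84 and 0.44, IVDS2 -1.56 and -1.26). Against IVDS2-C, 3 of these 16 border genes were higher and 5 lower, with a median of -0.31. Against IVDS2-P the median was 0.16, with 6 higher and 4 lower.

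Genes of neurons, by contrast, rose from IVDS2 in 8 and fell in 3 of 19 cases, with a median of 0.31. Against IVDS2-C, 2 were higher and 1 lower, and against IVDS2-P, 6 were higher and 6 lower. The list median was -0.24 and -0.17 on the IVDS2 arrays and 0.18 and 0.21 on the IVDS3 arrays. It was 0.11 and 0.21 on IVDS2-C and -0.01 and 0.24 on IVDS2-P. SYT4, a synaptotagmin of secretory vesicles, rose by 4.78 ± 0.45 (IVDS3 4.25 and 3.44, IVDS2 -0.85 and -1.02). STMN2, a microtubule regulator of growing axons, rose by 4.24 ± 0.60 (IVDS3 3.13 and 2.54, IVDS2 -0.74 and -2.06, 3.57 and 4.90 without IVDS2 replicate 2 and replicate 1), DPYSL3 by 3.39 ± 0.41, STMN4 by 3.06 ± 0.35, the RNA-binding protein ELAVL4 by 2.38 ± 0.30 and DCX (doublecortin) by 1.76 ± 0.30. GAD1, which makes the transmitter GABA, fell by 2.27 ± 0.22. The count of falls was 1 without IVDS2 replicate 1 or 2 or IVDS3 replicate 2.

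Liver genes, the stated aim of the co-culture, showed no common rise between the 2 stages. Of 45 measured genes for secreted liver proteins, 6 rose and 4 fell, with a median of -0.12 against -0.10 over all genes (falls 1 without IVDS3 replicate 1, 2 without IVDS2 replicate 2 and 7 without IVDS2 replicate 1). SERPINA1, alpha-1 antitrypsin, was at 0.09 and 0.22 in IVDS3 and -0.06 and 0.01 in IVDS2, a difference of 0.18 ± 0.12 that was not called (adjusted p = 0.247, 95% confidence interval -0.08 to 0.45). FGB, a fibrinogen chain, was at -0.39 and 0.80 in IVDS3, and its 2 IVDS2 arrays were far apart, at -0.25 and 3.05. Its difference of -1.19 ± 0.85 was not called (adjusted p = 0.303), and was -2.84 without IVDS2 replicate 1 (adjusted p = 0.00215). APOB, of low density lipoprotein, fell by 0.65 ± 0.15 (IVDS3 -0.37 and -0.24, IVDS2 0.51 and 0.18), a call that was lost without IVDS2 replicate 1 or IVDS3 replicate 1 (adjusted p = 0.0694 and 0.0682). The clear rises were those of the complement genes CFI and CFB, by 2.77 ± 0.14 and 1.91 ± 0.22, and of AMBP, the precursor of a plasma protease inhibitor, by 1.82 ± 0.20. The complement gene C5 fell by 0.95 ± 0.21. Albumin and transthyretin were not analysed here.

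Hepatoblast and fetal liver genes were mixed, 9 of 27 higher and 5 lower, with a median of -0.06. The rises were 4 without IVDS3 replicate 2 and 5 without IVDS3 replicate 1, and the falls 3 without IVDS3 replicate 1 or 2. AFP, alpha-fetoprotein, was at -0.58 and -0.48 in IVDS3 and 0.03 and 0.30 in IVDS2, a fall of 0.69 ± 0.12 (adjusted p = 0.00196). GPC3, a glypican of fetal liver, fell by 1.05 ± 0.19 and FOXA3, an endodermal forkhead factor, by 2.39 ± 0.27 (IVDS3 -2.40 and -2.37, IVDS2 0.06 and -0.05). CEBPA, a factor of liver, fat and epidermis, rose by 2.74 ± 0.17 (IVDS3 2.89 and 2.75, IVDS2 0.24 and -0.07), FOXA1 by 1.64 ± 0.23 and the growth factor gene IGF2 by 1.34 ± 0.17. HNF4A was not analysed here. Of 29 genes of hepatocyte metabolism, 4 rose and 4 fell, against 17.6% and 22.2% of all genes. They were led by PYGL, liver glycogen phosphorylase, at 1.31 ± 0.15, and GNMT, glycine N-methyltransferase, at -1.59 ± 0.24. The rises numbered 1 without IVDS2 replicate 2 or IVDS3 replicate 1 and 2 without IVDS2 replicate 1 or IVDS3 replicate 2, and the falls 2 without IVDS2 replicate 2 or IVDS3 replicate 1.

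Of 53 drug-metabolism genes, 13 rose and 8 fell, against 17.6% and 22.2% of all genes, with a median of 0.04. CYP1A1, the cytochrome that aryl hydrocarbons induce in liver and skin, was at 3.45 and 4.35 in IVDS3 and 0.05 and -0.05 in IVDS2, a rise of 3.90 ± 0.67. CYP3A4, the main drug-oxidising cytochrome of liver and gut, was at 3.84 and 3.70 in IVDS3 and -0.10 and -0.01 in IVDS2, a rise of 3.83 ± 0.16 (adjusted p = 9.02e-07). Probe sets of CYP3A genes can share sequence, so this value may hold other members of the family. ALDH3B2, an aldehyde dehydrogenase, rose by 1.95 ± 0.12. CYP4F11, UGT8, MGST1 and EPHX2 fell by 2.42 ± 0.29, 1.67 ± 0.29, 1.58 ± 0.13 and 1.26 ± 0.16.

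Definitive endoderm genes rose in 1 and fell in 3 of 17 cases. SOX17, FOXA2 and GATA4 were not called, at -0.39 ± 0.31, -0.17 ± 0.12 and 0.09 ± 0.14 (adjusted p = 0.358, 0.317 and 0.642), with 95% confidence intervals of -1.10 to 0.32, -0.45 to 0.11 and -0.22 to 0.40. GATA6, a factor of primitive and definitive endoderm, was at -0.20 and -0.08 in IVDS3 and 0.63 and 1.51 in IVDS2, a difference of -1.21 ± 0.56 that was not called (adjusted p = 0.119, 95% confidence interval -2.48 to 0.06) but was called lower in a fit of the 4 arrays alone (adjusted p = 0.0175). KIT, a receptor of endoderm and other progenitors, fell by 1.77 ± 0.33. In a fit of the 4 arrays alone, the list had 8 falls.

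Markers of other cell types that the cultures could hold moved in different ways. Among 37 fibroblast and mesenchyme genes, 15 rose and 6 fell, with a median of 0.16, and the median of the list was -0.05 and 0.00 on the IVDS2 arrays and 0.12 and 0.02 on the IVDS3 arrays. LUM and DCN, small proteoglycans of connective tissue, rose by 5.22 ± 0.21 and 4.35 ± 0.16. LUM was at 5.54 and 4.89 in IVDS3 and -0.06 and 0.06 in IVDS2, and DCN at 4.22 and 4.30 and -0.07 and -0.12. TGFBI, a matrix protein of cornea and skin, rose by 4.97 ± 0.32, the fibroblast protease FAP by 2.26 ± 0.22, FN1 (fibronectin) by 1.89 ± 0.25 and the collagen gene COL1A2 by 1.57 ± 0.16. COL1A1 and VIM were not called, at -0.11 ± 0.24 and -0.41 ± 0.29 (adjusted p = 0.762 and 0.303). CDH11, a mesenchymal cadherin, fell by 2.25 ± 0.39 and FBN2 by 1.22 ± 0.27. The co-cultured hESdF cells and the mouse feeders are fibroblast-like, and the part of carried-over fibroblast RNA in these values was not tested.

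Of 18 endothelial genes, 0 rose and 2 fell, and TEK, an angiopoietin receptor, fell by 1.49 ± 0.22. The other was MMRN1, a protein of platelets and endothelium, by 2.59 ± 0.63, which was not called without IVDS3 replicate 2 (adjusted p = 0.0639). Of 16 blood and immune cell genes, 4 rose and 2 fell, against 17.6% and 22.2% of all genes. LYZ, lysozyme, rose most, by 4.43 ± 0.26 (IVDS3 4.32 and 4.46, IVDS2 0.15 and -0.24). The other rises were those of CD68, CSF1R and CD8A, at 0.80, 0.80 and 0.50 (adjusted p = 0.00280, 0.00584 and 0.00710). ITGAM and HBE1 fell, at -0.75 and -0.32 (adjusted p = 0.00520 and 0.0395). The HBE1 call was lost with each array centred on its median (adjusted p = 0.0807), and the CD8A call without IVDS3 replicate 2. PTPRC, the pan-leukocyte gene CD45, was named after its value was seen and was at 0.02 and 0.19 in IVDS3 and 0.05 and 0.06 in IVDS2, a difference of 0.05 ± 0.14 (adjusted p = 0.798). Because the values are relative, a level near zero for it cannot be read as absence.

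Of 28 basement membrane and integrin genes, 10 rose and 7 fell, against 17.6% and 22.2% of all genes, with a median of 0.06 (falls 4 without IVDS3 replicate 1). ITGA2, the collagen-receptor chain of basal epithelium, rose by 4.08 ± 0.49 (IVDS3 3.76 and 3.56, IVDS2 -0.64 and -0.20), ITGB6, an epithelial integrin of wounds, by 1.89 ± 0.27, ITGA3 by 1.07 ± 0.16 and LAMA4 by 0.99 ± 0.16. COL4A6, a basement membrane collagen, fell by 2.18 ± 0.17. Among 28 matrix proteases and inhibitors, 14 rose and 4 fell (rises 9 without IVDS2 replicate 1 or IVDS3 replicate 1). The collagenase MMP1 rose by 2.08 ± 0.44, MMP10 by 2.04 ± 0.29, MMP12 by 1.85 ± 0.40 and MMP9 by 1.50 ± 0.15. The proteases ADAMTS9 and ADAM19 fell by 1.21 ± 0.19 and 1.19 ± 0.11.

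Lysosomal genes rose in 12 and fell in 2 of 28 cases, with a median of 0.32. CTSV, a cathepsin of thymus and cornea, rose by 3.51 ± 0.34 (IVDS3 2.64 and 3.17, IVDS2 -0.55 and -0.67), CTSH by 3.12 ± 0.23, CTSL, another cathepsin, by 1.87 ± 0.13, the sialidase NEU1 by 2.19 ± 0.15 and LAMP2 by 1.84 ± 0.18. NPC1, a cholesterol exporter of the lysosome, fell by 1.40 ± 0.19. Among 22 stress and immediate early genes, 6 rose and 2 fell (rises 3 without IVDS3 replicate 2 and 15 in a fit of the 4 arrays alone). TXNIP, a regulator of glucose uptake, rose by 1.61 ± 0.30 and KLF10 by 1.74 ± 0.28. MT2A, a metallothionein, and JUNB, a subunit of the AP-1 factor, had larger and less even rises, 4.24 ± 1.09 (IVDS3 2.97 and 3.74, IVDS2 -1.59 and -0.18) and 2.82 ± 0.84 (IVDS3 1.42 and 1.26, IVDS2 -0.86 and -2.10). The MT2A rise was 3.53 when IVDS2 replicate 1 was left out and 4.95 when replicate 2 was, and it was not called without IVDS2 replicate 1 or IVDS3 replicate 2 (adjusted p = 0.0807 and 0.0761). The JUNB rise was 2.20 when IVDS2 replicate 2 was left out and 3.44 when replicate 1 was, and it was not called without IVDS2 replicate 2, IVDS3 replicate 1 or IVDS3 replicate 2 (adjusted p = 0.155, 0.109 and 0.0882).

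Ribosome biogenesis genes fell in 25 and rose in 1 of 34 cases, with a median of -0.66 (falls 13 without IVDS3 replicate 1 and 14 without IVDS2 replicate 2). FBL, fibrillarin, which methylates ribosomal RNA, fell by 1.11 ± 0.14 (IVDS3 -1.23 and -0.98, IVDS2 0.02 and -0.01), NPM3 by 1.39 ± 0.17 and BYSL by 1.16 ± 0.17. The rise was that of NOP2, a ribosomal RNA methyltransferase, by 1.70 ± 0.24. Among 34 ribosomal protein genes, 13 fell and 4 rose, with a median of -0.22. The falls numbered 5 without IVDS2 replicate 1 or IVDS3 replicate 1 and 6 without IVDS2 replicate 2 or IVDS3 replicate 2, and the rises 2 without IVDS2 replicate 2 or IVDS3 replicate 1 or 2. RPL24 stood apart with a rise of 4.00 ± 0.44 from its 1 probe set (IVDS3 3.38 and 3.83, IVDS2 -0.47 and -0.33), and RPL22 fell by 1.23 ± 0.17.

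Glycolysis and hypoxia genes fell in 9 and rose in 3 of 23 cases. HK2, the hexokinase of fast-growing cells, fell by 2.31 ± 0.22 (IVDS3 -1.85 and -1.49, IVDS2 0.43 and 0.86), the glucose transporter SLC2A3 by 1.54 ± 0.17 and PDK3, which holds back pyruvate oxidation, by 1.34 ± 0.18. GAPDH, often used as a reference gene, fell by 1.55 ± 0.12 (IVDS3 -1.60 and -1.47, IVDS2 0.08 and -0.04). EPAS1, the hypoxia factor HIF-2-alpha, rose by 3.10 ± 0.28 (IVDS3 2.99 and 3.05, IVDS2 -0.02 and -0.14), and the collagen prolyl hydroxylase P4HA2 by 3.33 ± 0.17. Of 41 genes of oxidative phosphorylation, 9 rose and 2 fell, with a median of -0.04 (rises 3 without IVDS2 replicate 2 and 5 without IVDS3 replicate 2). SDHA, a subunit of complex II, rose by 0.99 ± 0.11 and COX8A, of complex IV, fell by 0.90 ± 0.18.

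The same IVDS3 arrays were set against the centre and the periphery of stage 2 colonies, so these comparisons share their IVDS3 samples with the one above and are given side by side. Against IVDS2-C, 2883 genes (21.9%) were called, 1441 (10.9%) higher and 1442 (10.9%) lower. Against IVDS2-P, 5493 (41.6%) were called, 2362 (17.9%) higher and 3131 (23.7%) lower. The count against IVDS2-C was 1482 without IVDS2-C replicate 1 and 1473 without IVDS3 replicate 1. Without IVDS3 replicate 2 its falls numbered 823.

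The stratified epithelial genes stood above both parts of the stage 2 colony. The median difference of the 12 stratified keratins was 3.23 against IVDS2, 2.91 against IVDS2-C and 3.62 against IVDS2-P, with 10 and 10 of 12 called higher in the latter pair. KRT4 was higher than in IVDS2-C by 8.36 ± 0.20 and than in IVDS2-P by 8.79 ± 0.20. The desmosome medians were 1.54, 1.24 and 2.12. ZNF750 was at 2.37 and 4.09 in IVDS2-C and -0.65 and -0.82 in IVDS2-P, so that its difference was 3.46 ± 0.43 from the centre and 7.42 ± 0.43 from the periphery. The first was 2.60 without IVDS2-C replicate 1 and 4.31 without IVDS2-C replicate 2. IVDS2-C was itself above IVDS2 in this gene, since IVDS2 minus IVDS2-C was -3.23 (adjusted p = 0.00767, and 0.0696 without IVDS2 replicate 2).

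The interferon median was 3.57 against IVDS2, 2.47 against IVDS2-C and 3.55 against IVDS2-P, with 35 and 36 of 38 genes called higher than in the centre and the periphery. For IFIT1 the differences were 7.84 ± 0.71, 2.72 ± 0.71 and 7.55 ± 0.71, and IVDS2 minus IVDS2-C was -5.13 (adjusted p = 0.00817, and 0.0731 without IVDS2 replicate 2). The difference of IVDS3 from IVDS2-C in IFIT1 was 1.27 without IVDS2-C replicate 1 and 4.16 without IVDS2-C replicate 2. It was not called without IVDS3 replicate 1 or IVDS3 replicate 2 (adjusted p = 0.102 and 0.111). The count of 35 interferon genes above IVDS2-C was 23 without IVDS3 replicate 1. The trophoblast and amnion list had medians of 0.31, -0.06 and 1.73. Its median was 0.75 and 0.84 on the IVDS2-C arrays and -1.37 and -0.88 on the IVDS2-P arrays, with IVDS2 between them at 0.13 and 0.05.

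The fall of mitosis genes was seen against all 3 kinds of stage 2 sample, with medians of -1.62, -1.42 and -1.85 and 53 and 55 of 58 genes called lower than in IVDS2-C and IVDS2-P. The replication medians were -1.52, -0.86 and -1.49. For CDKN1A the differences were 3.67 ± 0.21, 1.85 ± 0.21 and 3.47 ± 0.21, with IVDS2-C arrays at 1.38 and 1.82. POU5F1 was at -0.50 and -3.38 on the IVDS2-C arrays, which were far apart, and at 1.85 and 1.10 on the IVDS2-P arrays. Its difference was -2.52 ± 0.79 against the centre (adjusted p = 0.0501) and -5.93 ± 0.79 against the periphery (adjusted p = 0.000359). Against the centre it was -1.08 without IVDS2-C replicate 1 and -3.96 without IVDS2-C replicate 2 (adjusted p = 0.250 and 0.000985).

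**Figure D5:**
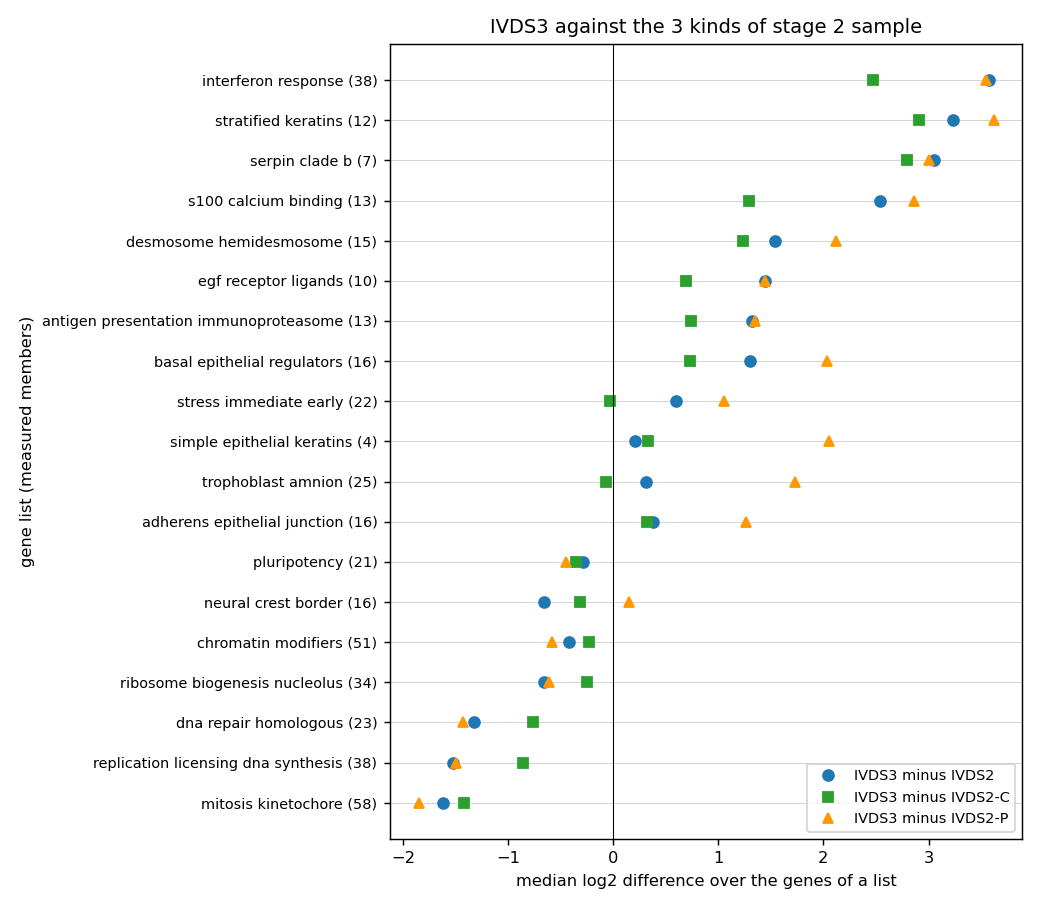
Median log2 difference (x axis) over the measured genes of 19 lists (y axis) of IVDS3 from IVDS2 whole colonies (circles), from IVDS2-C (squares) and from IVDS2-P (triangles), all with the same 2 IVDS3 arrays. Keratin and serpin medians lie near 3 against all 3, the interferon median is lower against IVDS2-C (2.47) than against the others, and the trophoblast median is 1.73 against IVDS2-P.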

How the data were processed

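RNA of 10 samples, 2 in each of 5 groups, was measured on rhesus macaque arrays. The deposited values are log2 expression, made with RMA per the submitters' processing notes, with no version given in the sources used here. They are centred so that the median of each probe set over the 10 arrays is zero, which the values show. The log base was inferred from their range, and no absolute level, filter on dim probe sets or scan batch could be derived. The platform annotation named 1 gene for 22802 of 44210 probe sets without controls, several for 316 and none for 21092, and its gene numbers matched RefSeq for 22520.

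Probe sets of a gene were averaged. All 10 arrays were fitted with limma 3.58.1 in R 4.3.3 (lmFit, eBayes), with 5 group means and no covariate, and p-values were adjusted by Benjamini-Hochberg over all 13191 genes. The script was tested on simulated data. The naming rule gave 452 genes. They are the 15 largest rises and the 15 largest falls, and up to 6 called genes in each direction of a list. All genes of lists of at most 12, genes that went against the majority of their list, and 25 landmark genes were added. The 15 rises and 15 falls were taken from called genes without a locus-number symbol and without overlap between the IVDS3 and IVDS2 arrays. In lists of over 12 genes, the text describes some of these genes and counts the rest. Genes named outside the rule are given as chosen after their values were seen. The comparison, its members and the gene lists were chosen with earlier results of these data known. Counts of a list are therefore descriptions. The labels do not say what a replicate number shares. Correlations between the replicate differences of the groups ran from -0.21 to 0.28, and IVDS3 with IVDS2 gave 0.20, so the numbers met no criterion for pairs and entered as an alternative, although the poly-A spikes followed them. Alternatives were centring of arrays, fewer groups, the replicate number as a block, a 2-fold minimum, another choice of probe set, and leaving out each array.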

Additional observations from a re-analysis of the deposited data

How the results depend on the processing

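Of 431 called genes under the naming rule, 328 were called whichever of the 10 arrays was left out, and 0 changed direction under any alternative run. Requiring at least 2-fold left 1896 called genes (1084 higher, 812 lower) between IVDS3 and IVDS2, 1122 (653 and 469) from IVDS2-C, 2095 (1133 and 962) from IVDS2-P, 5339 probe sets and 426 genes of the lists. Genes with 1 probe set, 7438 of 13191, gave 2627 calls (1135 higher, 1492 lower), 1426 (708 and 718) and 2760 (1164 and 1596) in the same order, and 374 in the lists. Leaving out 1 array gave 3433 to 5846 called genes between IVDS3 and IVDS2, with 1762 to 3315 lower, and 7899 to 14517 probe sets. From IVDS2-C it gave 1473 to 3323, with 835 to 1603 higher and 635 to 1720 lower, and from IVDS2-P 3886 to 6034. The upper ends came without an ES array. Centring each array gave 5041 called genes, 2512 higher and 2529 lower. With the replicate number as a block, 5359 genes were called, and 2995 and 5619 from IVDS2-C and IVDS2-P. 6 of the 431 lost their call with the block. The filter on low values could not be run, because the deposited values are centred. The number of arrays limits precision, and signal over background is not held in these values.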

Other observations

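Several gene lists outside epithelium, defence, growth and liver were also measured between IVDS2 and IVDS3. Of 15 smooth muscle and contractile genes, 4 fell and 1 rose, with a median of -0.32 (falls 2 without IVDS2 replicate 2 or IVDS3 replicate 1, rises 2 without IVDS2-C replicate 1 or 2 and with the replicate block). CNN1, calponin of smooth muscle, fell by 1.45 ± 0.29 (IVDS3 -1.31 and -0.90, IVDS2 0.12 and 0.57), and SYNPO2, an actin-binding protein, rose by 1.90 ± 0.24. Of 24 mesoderm and heart genes, 4 fell and 1 rose (falls 2 without IVDS2 replicate 2 or IVDS3 replicate 2). MEOX1, a somite factor, fell by 1.45 ± 0.21 and MEF2C, a muscle factor, rose by 1.46 ± 0.17. Of 16 genes of the Hippo pathway, VGLL3, a cofactor of TEAD factors, rose most, by 3.44 ± 0.27 (IVDS3 2.83 and 2.89, IVDS2 -0.40 and -0.75), and TEAD2 fell by 1.03 ± 0.10.

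Among 18 genes listed for bile duct cells, 6 rose and 6 fell (falls 2 without IVDS3 replicate 2 and 3 without IVDS2 replicate 1). PROM1, the stem cell surface protein CD133, fell by 2.52 ± 0.16 (IVDS3 -2.22 and -2.30, IVDS2 0.19 and 0.32), and ANXA4, an annexin of secretory epithelium, rose by 1.78 ± 0.19. Of 18 genes of cholesterol synthesis, 4 rose and 1 fell (rises 2 without IVDS2 replicate 2 or IVDS3 replicate 1 or 2 and with the replicate block), and CYP51A1, a demethylase of the pathway, rose by 1.28 ± 0.15. In the secretory pathway, PHGDH, the first enzyme of serine synthesis, fell by 1.34 ± 0.20 (IVDS3 -0.89 and -0.73, IVDS2 0.31 and 0.74), and SEC24D, a coat protein of vesicles leaving the endoplasmic reticulum, rose by 1.48 ± 0.19. Of the 21408 probe sets with no single named gene, 4578 were called, against 12639 of all 44210 probe sets (28.6%).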
